A study of Homo sapiens with 14 samples.

Results

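The 10 genes described here were GANAB, MYH16, ANXA6, ZDHHC16, ACSF2, CALB2, ANK1, PRDX4, KLHDC3 and THBS3, taken from 18377 genes on the array. They were chosen by their measured differences from siCtrl, the control siRNA: their mRNA was higher both after silencing of NUPR1 and after silencing of RELB, so those differences are given as a description with no test. Of the 266 genes (2.41% of those tested) that passed as higher in both contrasts, these were ranks 1 to 10 by the smaller of their differences. Each gene had 1 transcript cluster, the array's summary unit for a transcript, and all 10 were bright enough to be tested among 11026 genes. The last genes inside the choice were KLHDC3 and THBS3, with a smaller difference of 0.68 and 0.67 on the log2 scale. The nearest genes outside it, named after their values were seen, were GYS1 at 0.66, BCKDHA at 0.64 and MAGED1 at 0.64.

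The study asked how the chromatin protein NUPR1 and the NF-kB subunit RELB are linked in pancreatic cancer cells. RNA of MiaPaCa2, an established human pancreatic carcinoma line, was measured on 14 Affymetrix whole-transcript arrays, and values are log2 expression values. An NF-kB set of 6 arrays held cells transfected with a scrambled control siRNA (siCtrl), siRelA or siRelB, each kept for 9 h in mock medium or in Earle's Balanced Salt Solution (EBSS), a salt solution that the labels describe as lacking any glucose, amino acid or growth factor, although the standard formula of EBSS holds glucose. A Nupr1 set of 8 arrays held cells given siCtrl or siNupr1 and sampled unstarved at 0 h or after 3, 6 and 9 h in EBSS. The specific siRNAs were given at 140 ng, no array shows untransfected cells, and the composition of the mock medium is not given in the labels. Each combination was measured on 1 array, so errors come from a model fitted jointly to all 14 arrays, and the labels do not say which arrays share a culture. For the 9 h array used here as siNupr1, source and description name that siRNA but the title names another. The titles of the 0 h arrays name the culture medium DMEM where their source names EBSS, so their medium is in doubt.

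NUPR1 is a small stress-induced nuclear protein that binds chromatin. RELA and RELB are NF-kB subunits: RELA is the main activating subunit of the canonical pathway, and RELB partners with p52 in the non-canonical pathway. An siRNA is loaded into an Argonaute protein and guides it to complementary mRNA, and pairing of bases 2 to 8 of the guide strand, the seed, to other transcripts is the usual source of off-target effects. The 10 genes share no single pathway. GANAB and PRDX4 act in the endoplasmic reticulum, ANXA6, ZDHHC16 and ANK1 at membranes, and CALB2 in calcium binding. ACSF2 acts in fatty acid activation and KLHDC3 in ubiquitin ligation. MYH16 belongs to the sarcomeric myosins and THBS3 to the extracellular matrix proteins.

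The siRNA sequences in the labels are shown because a response common to siRNAs against different genes raises the question of sequence they share. Capitals mark bases 2 to 8 of the strand as written, and the labels do not say whether that strand is the guide, nor which siRNA of a pair was used on the arrays.
siNupr1: gGAGGACCcaggacaggau
siNupr1#2: aGGUCGCAccaagagagaa
siRelA: gAUCAAUGgcuacacagg
siRelB: gGAUUUGCcgaauuaacaa
siRelB#2: cUGCGGAUuugccgaauuauu
Over the 8 pairs of siRNAs directed at different genes, the longest shared run was 5 bases, acagg in siNupr1 and siRelA. The number of shared seeds was 0, on either strand. These siRNAs lowered the genes they were directed at, whereas the genes described here were higher, so the count of shared seeds cannot decide the question. The sequence of siCtrl, against which every rise was measured, is not given in the labels and was not compared. Whether siRNA sequence plays a part in the rise was not tested.

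The silenced genes checked the labels. Each was lower than with siCtrl: NUPR1 under siNupr1 by a log2 difference of -0.87 ± 0.10 (SE, 4 pairs), RELB under siRelB by -1.32 ± 0.17 (SE, 2 pairs) and RELA under siRelA by -2.49 ± 0.13 (SE, 2 pairs). RELB also fell under siNupr1, by 0.67 ± 0.12 (SE; limma adjusted p 0.00094), and NUPR1 fell under siRelB, by 0.43 ± 0.14 (SE; limma adjusted p 0.044). Under siRelA, NUPR1 was at -0.29 ± 0.14 (SE; limma adjusted p 0.17) and RELB at -0.36 ± 0.17 (SE; limma adjusted p 0.15), and neither passed. Between siRelB and siRelA, NUPR1 differed by -0.15 ± 0.14 (SE; limma adjusted p 0.62), so its fall was not told apart between these siRNAs. The array medians lay between 5.67 and 5.84. The keratins KRT8 and KRT19 and the intermediate filament VIM were bright, at means of 12.79, 10.11 and 12.65, whereas the epithelial markers EPCAM and CDH1 lay at 3.56 and 4.53, below the level of 5.80 under which genes were left out as dim. Of the marker lists, 4 of 6 epithelial, 1 of 3 mesenchymal and 3 of 6 fibroblast genes were above that level. For leukocyte, endothelial and acinar genes it was 2 of 4, 0 of 4 and 1 of 4. The leukocyte genes PTPRC and CD3E were at 2.65 and 4.98, and CD14 and CD68 at 5.90 and 8.22. The mesenchymal genes FN1 and CDH2 were at 4.44 and 4.81, and the fibroblast gene COL1A2 at 10.23.

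All 10 genes were higher than siCtrl in each of the 8 pairs of arrays that differ only in the siRNA, siRelA included. Of all genes tested, 46.4% to 57.9% were higher in a given pair, and 47.9% and 54.7% in the siRelA pairs in EBSS and in mock. The siNupr1 and siRelB pairs are those that chose the genes. The fitted differences ran from 1.61-fold to 2.13-fold with siNupr1, from 1.59-fold to 3.03-fold with siRelB and from 1.23-fold to 2.46-fold with siRelA. Their median was 0.78 with siNupr1, 0.83 with siRelB and 0.87 with siRelA on the log2 scale, against 0.01, 0.00 and 0.01 over all genes tested. With siRelA, which the choice did not use, 9 of the 10 genes rose past the test and none fell, where 10.1% of all genes tested rose and 11.4% fell. The siRelA comparison shares both siCtrl arrays of its set with the siRelB comparison that helped choose the genes, so a low value on these arrays raises both differences. Of the 256 other genes higher with both siNupr1 and siRelB, which share those arrays too, 171 (66.8%) also rose with siRelA, so the rise with siRelA was shared by many genes outside the 10.

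**Figure D1:**
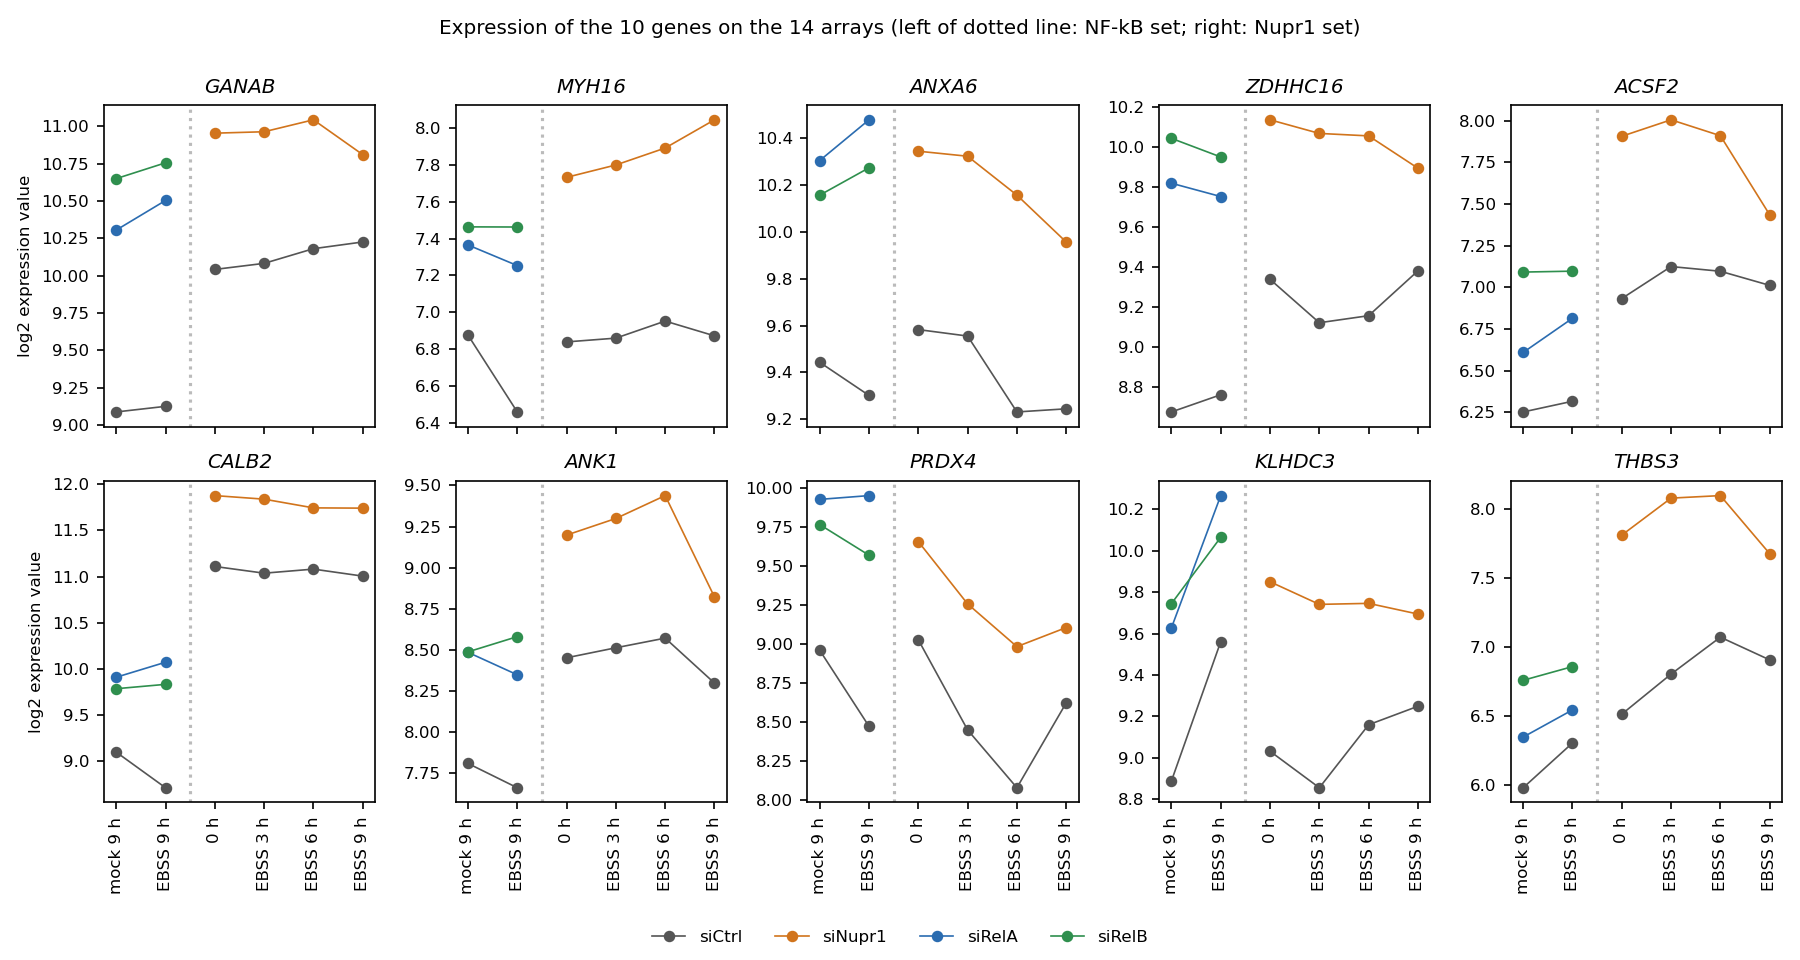
Log2 expression values of the 10 genes on the 14 arrays, 1 point per array, with the NF-kB set left and the Nupr1 set right of the dotted line and the siRNA given by colour. The siCtrl points lie below the silenced points of the same condition in all 10 panels.

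The members of the endoplasmic reticulum come first. GANAB encodes the catalytic subunit of glucosidase II, which trims glucose from new N-glycans and so admits glycoproteins to the calnexin cycle. In the NF-kB set its siCtrl values were 9.09 in mock and 9.13 in EBSS, its siRelA values 10.31 and 10.50, and its siRelB values 10.65 and 10.76. In the Nupr1 set the siCtrl values at 0, 3, 6 and 9 h were 10.04, 10.08, 10.18 and 10.23, and the siNupr1 values 10.96, 10.96, 11.04 and 10.81. The groups did not overlap in either set, and the siRelB arrays were the highest of the NF-kB set. The difference was 0.81 ± 0.07 (SE) with siNupr1 and 1.60 ± 0.10 (SE) with siRelB, where GANAB ranked 1 of all genes tested. With siRelA it rose by 1.30 ± 0.10 (SE), 2.46-fold, with a limma adjusted p of 7.2e-08, and ranked 8.

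PRDX4 encodes a peroxiredoxin that resides in the endoplasmic reticulum and reduces hydrogen peroxide. Its mock and EBSS values in the NF-kB set were 8.96 and 8.47 with siCtrl, 9.92 and 9.95 with siRelA, and 9.76 and 9.57 with siRelB. The Nupr1 set gave 9.03, 8.45, 8.08 and 8.62 with siCtrl at 0, 3, 6 and 9 h, and 9.65, 9.26, 8.98 and 9.10 with siNupr1. It was the 1 gene whose groups overlapped: the siNupr1 array at 6 h lay just under the siCtrl array at 0 h, and both siRNA groups were lowest at 6 h. The difference was 0.70 ± 0.09 (SE) with siNupr1 and 0.95 ± 0.13 (SE) with siRelB. With siRelA, PRDX4 rose by 1.22 ± 0.13 (SE), 2.33-fold (limma adjusted p 2.7e-06), rank 11 of all genes tested.

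Among the membrane genes, ANXA6 encodes annexin A6, which binds phospholipids in the presence of calcium. With siCtrl it measured 9.44 in mock and 9.30 in EBSS in the NF-kB set, with siRelA 10.30 and 10.48, and with siRelB 10.16 and 10.27. Across 0, 3, 6 and 9 h of the Nupr1 set, siCtrl cells measured 9.58, 9.56, 9.23 and 9.24 and siNupr1 cells 10.34, 10.32, 10.16 and 9.96. The groups did not overlap, and here the siRelA arrays stood above the siRelB arrays. The difference was 0.79 ± 0.07 (SE) with siNupr1 and 0.84 ± 0.11 (SE) with siRelB. With siRelA, ANXA6 rose by 1.02 ± 0.11 (SE), 2.03-fold (limma adjusted p 2e-06).

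ZDHHC16 encodes a DHHC-type palmitoyltransferase, an enzyme that attaches palmitate to cysteines of other proteins. In the NF-kB set its siCtrl values were 8.68 in mock and 8.76 in EBSS, its siRelA values 9.82 and 9.75, and its siRelB values 10.04 and 9.95. In the Nupr1 set the siCtrl values at 0, 3, 6 and 9 h were 9.34, 9.12, 9.16 and 9.38, and the siNupr1 values 10.13, 10.07, 10.05 and 9.89. All silenced arrays lay above all siCtrl arrays of their set. The difference was 0.79 ± 0.08 (SE) with siNupr1 and 1.28 ± 0.11 (SE) with siRelB, rank 4. With siRelA, ZDHHC16 rose by 1.07 ± 0.11 (SE), 2.09-fold (limma adjusted p 3.1e-06).

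ANK1 encodes an ankyrin, which ties membrane proteins to the spectrin skeleton and is best known from red blood cells. Its mock and EBSS values in the NF-kB set were 7.81 and 7.66 with siCtrl, 8.48 and 8.35 with siRelA, and 8.49 and 8.58 with siRelB. The Nupr1 set gave 8.45, 8.51, 8.57 and 8.30 with siCtrl at 0, 3, 6 and 9 h, and 9.20, 9.30, 9.44 and 8.82 with siNupr1. The groups did not overlap, and siRelA and siRelB arrays in mock were nearly level. The difference was 0.73 ± 0.09 (SE) with siNupr1 and 0.80 ± 0.12 (SE) with siRelB. With siRelA, ANK1 rose by 0.68 ± 0.12 (SE), 1.60-fold (limma adjusted p 0.00046).

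CALB2 encodes calretinin, an EF-hand protein that buffers calcium and is used as a marker of mesothelium and of some neurons. With siCtrl it measured 9.10 in mock and 8.71 in EBSS in the NF-kB set, with siRelA 9.91 and 10.07, and with siRelB 9.79 and 9.83. Across 0, 3, 6 and 9 h of the Nupr1 set, siCtrl cells measured 11.11, 11.04, 11.08 and 11.01 and siNupr1 cells 11.88, 11.84, 11.74 and 11.74. The groups did not overlap within either set, but every array of the Nupr1 set, siCtrl included, was above every array of the NF-kB set. The difference was 0.74 ± 0.08 (SE) with siNupr1 and 0.90 ± 0.11 (SE) with siRelB. With siRelA, CALB2 rose by 1.09 ± 0.11 (SE), 2.12-fold (limma adjusted p 1.4e-06), rank 20.

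ACSF2 encodes a mitochondrial acyl-CoA synthetase, which activates fatty acids. In the NF-kB set its siCtrl values were 6.25 in mock and 6.32 in EBSS, its siRelA values 6.61 and 6.81, and its siRelB values 7.09 and 7.10. In the Nupr1 set the siCtrl values at 0, 3, 6 and 9 h were 6.93, 7.12, 7.10 and 7.01, and the siNupr1 values 7.91, 8.01, 7.91 and 7.44. The siRelA arrays stood between the siCtrl and the siRelB arrays, and the siNupr1 array at 9 h was the lowest of its group. The difference was 0.77 ± 0.10 (SE) with siNupr1 and 0.81 ± 0.14 (SE) with siRelB. With siRelA, ACSF2 rose by 0.43 ± 0.14 (SE), 1.34-fold (limma adjusted p 0.029), rank 802. That call was lost without any 1 of the 4 siCtrl and siRelA arrays of its set, at adjusted p from 0.083 to 0.26, and at 0.056 when dim genes were also tested.

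KLHDC3 encodes a Kelch-repeat protein that serves as a substrate receptor of CUL2 ubiquitin ligases. Its mock and EBSS values in the NF-kB set were 8.89 and 9.56 with siCtrl, 9.63 and 10.27 with siRelA, and 9.74 and 10.07 with siRelB. The Nupr1 set gave 9.03, 8.86, 9.16 and 9.25 with siCtrl at 0, 3, 6 and 9 h, and 9.85, 9.74, 9.75 and 9.69 with siNupr1. The lowest silenced array of the NF-kB set, siRelA in mock, lay only just above siCtrl in EBSS, and each siRNA group was higher in EBSS than in mock. The difference was 0.68 ± 0.09 (SE) with siNupr1 and 0.68 ± 0.12 (SE) with siRelB. With siRelA, KLHDC3 rose by 0.72 ± 0.12 (SE), 1.65-fold (limma adjusted p 0.00032).

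MYH16 is a sarcomeric myosin heavy chain gene of jaw muscle that was inactivated in the human lineage. With siCtrl it measured 6.88 in mock and 6.46 in EBSS in the NF-kB set, with siRelA 7.37 and 7.25, and with siRelB 7.46 and 7.46. Across 0, 3, 6 and 9 h of the Nupr1 set, siCtrl cells measured 6.84, 6.86, 6.95 and 6.87 and siNupr1 cells 7.73, 7.80, 7.89 and 8.04. The siCtrl values of the Nupr1 set were close together, and the groups did not overlap. The difference was 0.99 ± 0.09 (SE) with siNupr1, rank 5, and 0.80 ± 0.13 (SE) with siRelB. With siRelA, MYH16 rose by 0.64 ± 0.13 (SE), 1.56-fold (limma adjusted p 0.0015), a call that was lost without the siCtrl array in EBSS (adjusted p 0.081).

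THBS3 encodes thrombospondin 3, a secreted glycoprotein of the matrix. In the NF-kB set its siCtrl values were 5.98 in mock and 6.30 in EBSS, its siRelA values 6.35 and 6.54, and its siRelB values 6.76 and 6.86. In the Nupr1 set the siCtrl values at 0, 3, 6 and 9 h were 6.51, 6.80, 7.07 and 6.91, and the siNupr1 values 7.81, 8.08, 8.10 and 7.68. The siRelA array in mock was barely above the siCtrl array in EBSS, and the NF-kB set values began just above the level of 5.80 under which genes were left out. The difference was 1.09 ± 0.10 (SE) with siNupr1, where THBS3 ranked 2 of all genes tested, and 0.67 ± 0.14 (SE) with siRelB. With siRelA the difference was 0.30 ± 0.14 (SE), with a 95% interval from 0.015 to 0.59 and a limma adjusted p of 0.13, and THBS3 was the 1 gene that did not pass.

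**Figure D2:**
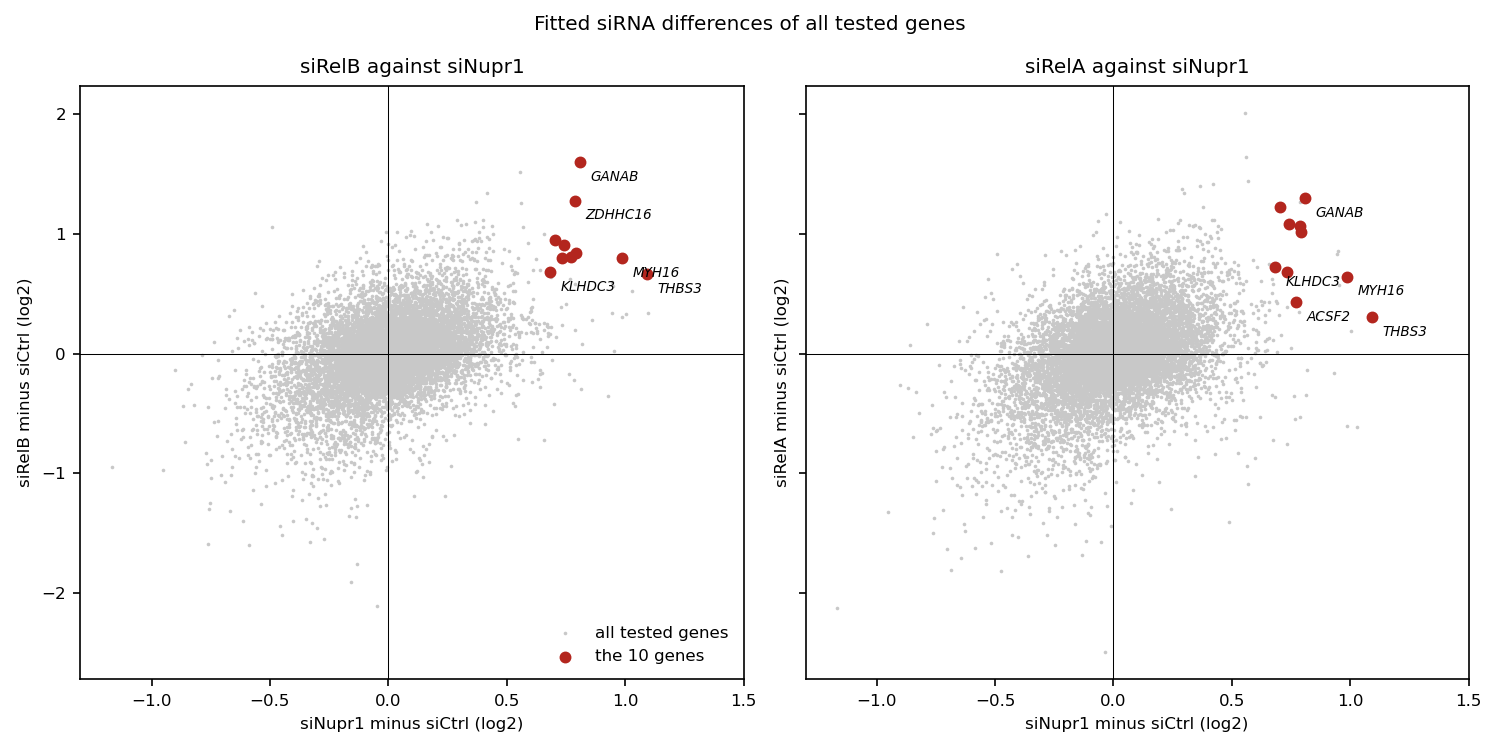
Fitted log2 differences from siCtrl of all 11026 tested genes (grey) and the 10 genes (red), with siNupr1 on the horizontal axes and siRelB (left) or siRelA (right) on the vertical axes. The 10 genes lie at the upper right in the left panel by their choice; in the right panel they lie between 0.30 (THBS3) and 1.30 (GANAB).

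The direct comparison of siRelB with siRelA does not use siCtrl arrays of the NF-kB set, but it holds the siRelB arrays that helped choose the genes, so it is given as a description. By limma with Benjamini-Hochberg adjustment, 0 of the 10 genes passed in either direction, where 5.46% of all genes tested were higher with siRelB and 4.61% lower. At an unadjusted p under 0.05 there were 3 of the 10 genes and 2587 of all genes. ACSF2 differed by 0.38 (95% interval 0.10 to 0.67), THBS3 by 0.36 (0.074 to 0.65) and GANAB by 0.30 (0.089 to 0.51). The interval of PRDX4, at -0.27, ran from -0.54 to 0.00054, almost all of it on the side of higher siRelA values. For the other 6 genes the intervals reached both sides of 0, and the lowest bound was -0.41 (CALB2) and the highest 0.45 (ZDHHC16), so differences of that size cannot be told apart from none. GANAB passed when arrays were quantile normalized again, centred on their medians or weighted, with adjusted p of 0.017, 0.041 and 0.043. Without the siCtrl or the siNupr1 array at 9 h of the Nupr1 set, both GANAB (0.026 and 0.027) and ACSF2 (0.033 and 0.034) passed.

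Every siRNA array was above every siCtrl array of its set for 9 of the 10 genes with siNupr1, for 10 with siRelB and for 10 with siRelA. Over all genes tested this held for 5.75%, 17.7% and 18.0%. The siNupr1 and siRelB counts follow from the choice of the genes. The siRelA count uses the siCtrl arrays that helped choose them. The 18.0% is over genes not chosen that way, so this count too is given as a description. The share of the 10 genes that passed as higher with siNupr1 (10 of 10, against 9.86% of all genes tested) and with siRelB (10 of 10, against 7.58%) is likewise fixed by the choice. None was lower, where 8.58% and 8.55% of all genes tested were.

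**Figure D3:**
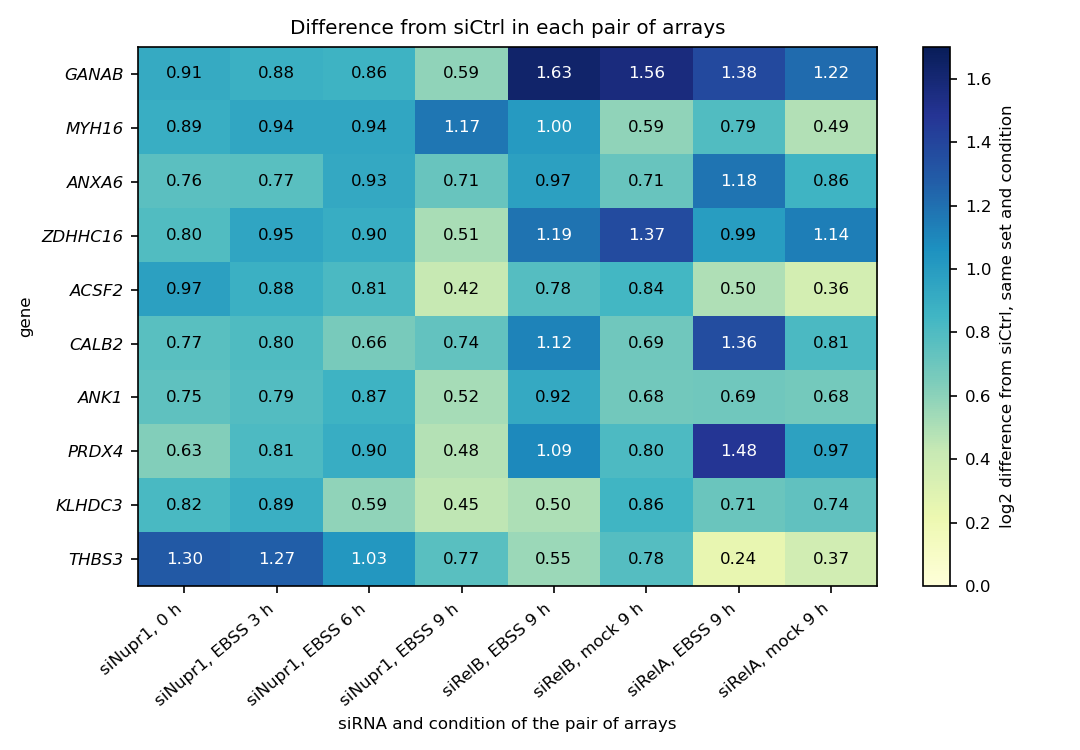
Log2 difference from siCtrl of each of the 10 genes (rows) in each of the 8 pairs of arrays of the same set and condition (columns), with the value printed in each cell and shown by colour. Every difference is above 0; the largest is 1.63 (GANAB, siRelB in EBSS) and the smallest 0.24 (THBS3, siRelA in EBSS).

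Taken pair by pair, the siNupr1 difference had a median over the 10 genes of 0.81 in unstarved cells, 0.88 and again 0.88 after 3 and 6 h in EBSS, and 0.55 after 9 h. All 10 genes were at least 1.5-fold higher at 0, 3 and 6 h and 5 were so at 9 h, against 2.68%, 1.90%, 1.36% and 0.998% of all genes tested. The 9 h value comes from the array whose title names another siRNA. NUPR1 on that array was at 6.64, against 7.30 with siCtrl at 9 h. At 0, 3 and 6 h, NUPR1 was at 5.59, 6.33 and 6.28 with siNupr1, against 6.27, 7.25 and 7.49 with siCtrl. MYH16 ran the other way, with its largest siNupr1 difference, 1.17, at 9 h. A change of the siNupr1 difference with hours was tested for itself: 8 of 10 slopes were below 0, as were 57.6% over all genes tested, and 0 genes passed limma's adjusted threshold, 0.00% of those tested. At an unadjusted p under 0.05 there were 3 of the 10 genes, THBS3 at -0.06 ± 0.02 per hour (SE), ACSF2 at -0.06 ± 0.02 and KLHDC3 at -0.05 ± 0.02, and 2149 of all genes. Without the siNupr1 array at 9 h the slopes of ZDHHC16, ANK1 and PRDX4 turned above 0, to 0.017, 0.020 and 0.046.

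In the NF-kB set the median siRelB difference was 0.99 in EBSS and 0.79 in mock, and the median siRelA difference 0.89 and 0.78. Both were higher in EBSS, but both use the same siCtrl arrays. A fit of the dependence on medium leaves no spread within the NF-kB set, so its errors come from the Nupr1 set alone. For siRelB, 0 genes passed limma's adjusted test of this dependence on medium, with 1 of the 10 genes and 400 of all genes at an unadjusted p under 0.05. For siRelA, 0 of the 10 passed, where 0.0363% of all genes tested did (4 genes); at an unadjusted p under 0.05 there were 1 of the 10 genes and 572 of all genes. The 1 gene was CALB2 both times, at 0.43 ± 0.18 (SE) with siRelB and 0.55 ± 0.18 (SE) with siRelA. Its siCtrl value in EBSS, used in both differences, was 8.71 against 9.10 in mock.

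The level of the control cells differed between the sets. Both sets held siCtrl after 9 h in EBSS. Under that label, 8 of the 10 genes were higher in the Nupr1 set, against 50.1% of all genes tested. Their median difference was 0.61, against 0.0012 over all genes tested. At least 1.5-fold higher were 6 of the 10, against 19.3% of all genes tested. CALB2 was higher by 2.29 and GANAB by 1.10, whereas ANXA6 differed by -0.06 and KLHDC3 by -0.31. This difference was not tested, and set and any difference in culture or processing cannot be told apart. The siRNA comparisons were made within sets.

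Starvation changed KLHDC3, PRDX4, THBS3 and ANXA6 in at least 1 of the 4 comparisons, that is 4 of the 10 genes, against 63.1% of all genes tested. In EBSS against mock at 9 h, KLHDC3 rose by 0.54 ± 0.10 (SE, 3 pairs; limma adjusted p 0.00016), with differences of 0.67 with siCtrl, 0.64 with siRelA and 0.32 with siRelB. It was the 1 gene of 10 that rose and none fell, where 22.6% of all genes tested rose and 29.3% fell. PRDX4, at -0.22 ± 0.11 (SE), had an adjusted p of 0.088. The split of all genes depended on scaling: 2489 rose and 3233 fell as deposited, 3697 and 2803 after further quantile normalization, and 3946 and 2796 after centring. GANAB also passed as higher after quantile normalization (adjusted p 0.034) and centring (0.028), and THBS3 after centring (0.027). PRDX4 passed as lower with array weights (0.047) and without the siRelA array in EBSS (0.037) or in mock (0.037).

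Over time in EBSS, PRDX4 was lower than at 0 h at each time point. It fell by 0.49 ± 0.13 (SE, 2 pairs; limma adjusted p 0.018) at 3 h, by 0.81 ± 0.13 (adjusted p 0.00018) at 6 h and by 0.48 ± 0.13 (adjusted p 0.011) at 9 h. In the siCtrl pairs the differences were -0.58, -0.95 and -0.40, and in the siNupr1 pairs -0.40, -0.67 and -0.55, so both pairs fell at each time. The 6 h call held in every alternative, with adjusted p up to 0.020. The 3 h call was lost without the siCtrl array at 0 h (0.15), the siCtrl array at 3 h (0.21) or the siNupr1 array at 3 h (0.098). The 9 h call was lost without the siCtrl array at 0 h (0.087) or the siNupr1 array at 9 h (0.15).

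THBS3 rose at 6 h by 0.42 ± 0.14 (SE; limma adjusted p 0.032) and ANXA6 fell at 9 h by 0.36 ± 0.11 (SE; limma adjusted p 0.016). The THBS3 call was lost without the siCtrl array at 0 h (0.33), the siCtrl array at 6 h (0.26) or the siNupr1 array at 6 h (0.10), and at 0.056 when dim genes were also tested. The ANXA6 call was lost without the siCtrl array at 0 h (0.10), the siNupr1 array at 0 h (0.057) or the siNupr1 array at 9 h (0.098). Among the 10 genes, limma called 0, 1 and 0 higher after 3, 6 and 9 h, against 3.27%, 7.65% and 9.19% of all genes tested. It called 1, 1 and 2 of them lower, against 9.07%, 15.7% and 15.1%. Without the siCtrl array at 9 h, ACSF2 and ANK1 were called lower there as well (adjusted p 0.047 and 0.045). With array weights, neither gene was called lower at 9 h (PRDX4 0.050, ANXA6 0.077). The 3 times share their 0 h arrays and are not independent.

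**Figure D4:**
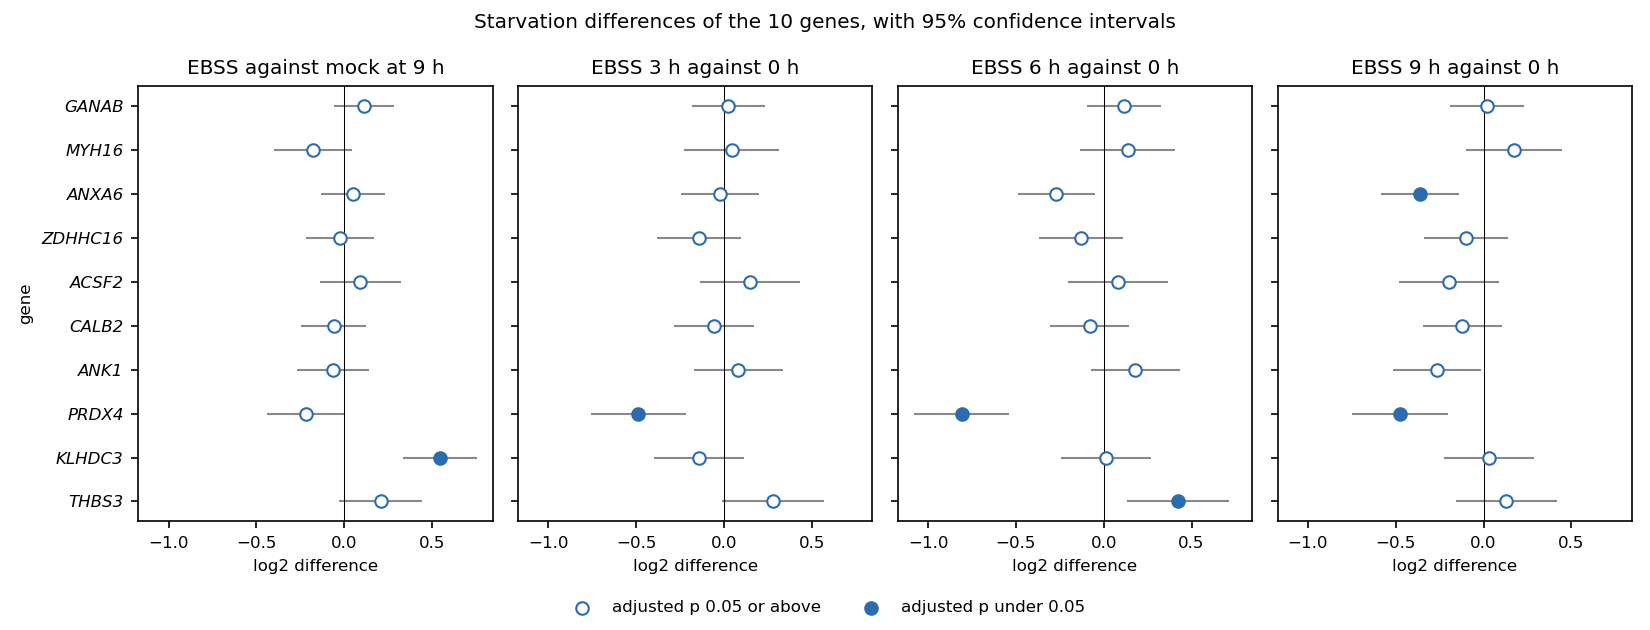
Fitted log2 differences of the 10 genes with 95% confidence intervals for EBSS against mock at 9 h and for EBSS at 3, 6 and 9 h against 0 h, with filled points where the adjusted p was under 0.05. PRDX4 lies below 0 in all 4 panels and is filled in the 3 time comparisons, and KLHDC3 is filled only in the first panel, at 0.54.

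The promoters of the 10 genes were read because the genes are higher under siRNAs against transcription regulators. The RefSeq table (GRCh38.p14) held the promoters of 7 of them, all but CALB2, ANK1 and MYH16. In the 250 bases before the start, the E-box CACGTG, a palindrome bound by basic helix-loop-helix factors, was found in 5 of the 7, against 6.49% of all 27305 promoters and 9.28% of the 8849 promoters of tested genes. Of the 211 promoters of the other genes that were higher with both siNupr1 and siRelB, 20 held it (9.48%), and it was in 10.2% of promoters of genes that rose with siRelA. The motif was picked out of 7 searched, and the count is a description of these letters. The sites are shown with 10 bases on each side and CACGTG in capitals, each 5′ to 3′ on the gene's strand.
ACSF2: ggttcctgtcCACGTGgaatttggcg
ANXA6: ctctgcgcgcCACGTGtccggctcgg
KLHDC3: gctacgactgCACGTGcgcgcacagc
PRDX4: ggccggcgccCACGTGgcggggcggg
ZDHHC16: cgcagtaagaCACGTGtcaattggta
These windows lie at chr17:50468198-50468223 (plus strand), chr5:151157814-151157839 (minus), chr6:43014194-43014219 (plus), chrX:23667400-23667425 (plus) and chr10:97446056-97446081 (plus). The motif began 121, 50, 45, 83 and 109 bases before the start used for ACSF2, ANXA6, KLHDC3, PRDX4 and ZDHHC16. The flanking bases differed among the 5 sites. The 250-base windows of ACSF2, KLHDC3 and ZDHHC16 also overlap the genes CHAD, MEA1 and EXOSC1, in that order. The ACSF2 window overlaps ACSF2 itself as well, and the THBS3 window, without this motif, overlaps THBS3. The start used for each of them therefore lies inside the span of the gene, and the ACSF2 site is among the 5 counted.

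The other 6 motifs were searched in the same windows. The GC box GGGCGG (both strands, as for all motifs) was in 6 of the 7 promoters, against 42.3% of all promoters and 69.1% of those of tested genes. The CCAAT box was in 4 (33.0% of all) and the antioxidant element (TGAC, any 3 bases, GC) in 1, GANAB (11%). The NF-kB consensus was in 0 of 7, with 5.05% of all promoters holding it, the cyclic AMP element (TGACG followed by TCA) in 0 (1.77%) and the endoplasmic reticulum stress element (CCAAT, any 9 bases, CCACG, so each also holds a CCAAT box) in 0 (0.0806%). The GC content of the 7 had a median of 62.8%, from 55.2% to 68.4%, against 65.6% over the promoters of tested genes and 58.0% over all promoters.

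The nearest tested neighbours of the 10 genes on the chromosomes numbered 20. Of these, 3 rose with siNupr1, 4 with siRelB and 4 with siRelA, where 9.86%, 7.58% and 10.1% of all genes tested rose. The numbers that fell were 0, 0 and 1, where 8.58%, 8.55% and 11.4% of all genes fell. MUC1, beside THBS3, was at -0.01 with siNupr1, 0.82 with siRelB and 0.74 with siRelA. MTX1, which overlaps THBS3, passed in none of the 3 comparisons, at 0.26, -0.02 and -0.14. MEA1, which overlaps KLHDC3, was at 0.31, 0.37 and -0.13, where the first and second passed. MMS19, beside ZDHHC16, was at -0.11, 0.52 and 0.57, where the second and the third passed. EXOSC1, nearer to ZDHHC16 than MMS19, was at 0.07, -0.13 and -0.29. INTS5, the nearest to GANAB, was at 0.07, 0.07 and 0.0047. Neither EXOSC1 nor INTS5 passed in any of the 3 comparisons. The genomic span of the 10 genes had a median of 26.7 kb, against 24.7 kb over the genes tested.

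The 10 profiles were alike over the 14 arrays once the mean of each set and condition was taken off, which is in part a consequence of their choice. Pearson's r between pairs of the 10 ran from 0.76 to 0.99 with a median of 0.93 over 45 pairs, and each gene's r with the mean of the others from 0.885 (THBS3) to 0.989 (ANK1). The tested genes most like their mean profile were PCTP (r 0.989), VSTM2L (0.984), GYS1 (0.984), NUMA1 (0.983) and JUP (0.982), each over 14 arrays that share controls. The median r over all genes was 0.045. PCTP, a phosphatidylcholine transfer protein, differed by 0.49 with siNupr1, 0.45 with siRelB and 0.40 with siRelA, and JUP, the junction protein plakoglobin, by 0.63, 0.79 and 0.61.

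In the lists of related genes some genes rose and others fell. Over the 12 lists with tested genes, the list median ran from -0.21 to 0.19 with siNupr1, from -0.11 to 0.33 with siRelB and from -0.18 to 0.30 with siRelA, against 0.01, 0.00 and 0.01 over all genes tested. The -0.21 was that of the small RNA silencing machinery, a list that holds none of the 10. Among the lists that hold a gene of the 10, the siNupr1 median ran from -0.07 to 0.19. Only the CUL2 ligase list among them had a siNupr1 median below 0. The background for the counts of each list is 9.86% of all genes tested higher and 8.58% lower with siNupr1, 7.58% and 8.55% with siRelB, and 10.1% and 11.4% with siRelA. Of 10 other tested genes of N-glycan trimming and lectin chaperones, related to GANAB, 1 rose and 0 fell with siNupr1, 2 rose and 1 fell with siRelB, and 2 rose and 2 fell with siRelA. The chaperone CALR rose in all 3 comparisons, by 0.34, 0.33 and 0.38, and the mannosidase-like EDEM3 fell with siRelB, to a difference of -0.47, and with siRelA, to -0.83. Of 10 peroxiredoxins and oxidative folding genes, related to PRDX4, 3 rose and 1 fell with siNupr1, 2 and 1 with siRelB, and 1 and 2 with siRelA. The peroxidase GPX8 fell in all 3, at differences of -0.39, -0.51 and -1.26, and the disulfide isomerase P4HB rose in all 3, by 0.29, 0.31 and 0.43. Of 14 genes of the unfolded protein response, 3 rose and 1 fell with siNupr1, 0 and 2 with siRelB, and 0 and 3 with siRelA. CRELD2 rose with siNupr1, at 0.38, and HERPUD1 fell, at -0.42. The chaperone HSP90B1 fell with siRelB and siRelA, at -0.37 and -0.38.

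Of 6 other tested annexins, 3 rose and 0 fell with siNupr1, 2 and 1 with siRelB, and 3 and 1 with siRelA. ANXA7 rose in all 3, by 0.40, 0.71 and 0.94, whereas ANXA5 fell with siRelB, at -0.82, and ANXA1 rose with siNupr1, at 0.21, and fell with siRelA, at -0.57. Of 6 EF-hand genes related to CALB2, 1 rose with siNupr1, 1 fell with siRelB and 1 rose with siRelA. They were S100A16 at 0.32, S100A10 at -0.19 and S100A11 at 0.27. Of 6 partners of ANK1, 1 rose with siNupr1, 3 with siRelB and 3 with siRelA, and 0 fell. The spectrin SPTAN1 rose in all 3, by 0.26, 0.41 and 0.54. Of 4 myosin heavy chains, 1 rose in each comparison, MYH9, the non-muscle myosin, by 0.27, 0.78 and 0.86.

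Of 18 other tested palmitoyltransferases, 3 rose and 2 fell with siNupr1, 2 and 0 with siRelB, and 3 and 3 with siRelA. ZDHHC18 rose in all 3, by 0.34, 0.45 and 0.64, and ZDHHC13 fell with siRelA, at -0.85. Of 9 acyl-CoA synthetases, 3 rose and 0 fell with siNupr1, 4 and 2 with siRelB, and 3 and 1 with siRelA. The fatty acid transporter SLC27A4 rose in all 3, by 0.39, 0.36 and 0.45, and ACSL4 fell with siRelB and siRelA, at -0.67 and -0.56. Of 14 CUL2 ligase genes, 1 rose and 1 fell with siNupr1, 2 and 1 with siRelB, and 2 and 2 with siRelA. KLHDC10, a close relative of KLHDC3, was at 0.11 with siNupr1 and rose with siRelB by 0.87 and with siRelA by 0.47. None of the 4 other thrombospondins was bright enough to be tested.

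Genes of the response to transfected RNA were listed because every array received an siRNA. Of 11 tested genes of RNA sensing and the interferon response, 0 rose and 1 fell with siNupr1, 0 and 0 with siRelB, and 1 and 0 with siRelA. The interferon-induced IFIT1 rose with siRelA by 1.09 and was at 0.27 with siNupr1 and 0.28 with siRelB, and EIF2AK2, a kinase that binds double-stranded RNA, fell with siNupr1, at -0.30. Of 13 genes of the small RNA silencing machinery, 0 rose and 6 fell with siNupr1, where 8.58% of all genes tested fell. With siRelB 1 rose and 2 fell, and with siRelA 2 rose and 1 fell. DICER1, which cuts small RNA precursors, fell in all 3, at -0.67, -0.67 and -0.53. AGO2, the slicing Argonaute, fell with siNupr1, at -0.44, and DROSHA rose with siRelB by 0.68 and with siRelA by 0.47. The part of the transfection itself in the values of the 10 genes was not tested.

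The same lists were counted in the other comparisons. As background, 22.6% of all genes tested rose and 29.3% fell in EBSS against mock. In EBSS against mock, 2 N-glycan genes rose and 4 fell, 0 and 5 of the peroxiredoxin list, 4 and 6 of the unfolded protein response, 4 and 5 palmitoyltransferases, 2 and 2 acyl-CoA synthetases and 3 and 6 CUL2 ligase genes. In that comparison 0 annexins rose and 1 fell, 3 EF-hand genes rose and 0 fell, 0 partners of ANK1 rose and 2 fell, and 0 myosins rose and 1 fell. RNA sensing genes rose in 3 cases and fell in 5, and 0 genes of the silencing machinery rose and 6 fell. The peroxiredoxin list, to which PRDX4 belongs, had a median of -0.18 there and of -0.23, -0.26 and -0.20 after 3, 6 and 9 h in EBSS, against 0.05, -0.03, -0.01 and -0.04 over all genes tested. Its members lower than at 0 h numbered 2, 6 and 3 at these times, and 0 were higher.

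Against 0 h, the background was 3.27%, 7.65% and 9.19% of all genes tested higher after 3, 6 and 9 h, and 9.07%, 15.7% and 15.1% lower. The unfolded protein response genes that rose numbered 3, 3 and 6 after 3, 6 and 9 h, and those that fell 2, 4 and 4. For N-glycan genes the higher calls numbered 0, 0 and 1 and the lower calls 4, 3 and 3. Palmitoyltransferases had 0 higher calls and 3, 3 and 4 lower calls. The CUL2 ligase genes had 0, 2 and 4 higher and 2, 2 and 2 lower calls, the RNA sensing genes 2, 2 and 1 higher and 2, 2 and 2 lower, and the silencing machinery 0, 3 and 4 higher and 3, 2 and 1 lower. The remaining lists had at most 1 call in each direction at each time. Between siRelB and siRelA, where 5.46% of all genes tested were higher and 4.61% lower, 3 genes of the peroxiredoxin list were higher and 0 lower, 1 and 2 annexins, 0 and 2 EF-hand genes, 2 and 1 palmitoyltransferases, and at most 1 gene in each direction in the other lists.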

How the data were processed

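RNA of MiaPaCa2 cells (14 arrays, 1 per combination of siRNA, medium and time) was labelled from 200 ng by a whole-transcript kit, per the labels' protocols. The authors deposited log2 expression values. Robust multi-array average (RMA) and limma are named, without versions, per the submitters' processing notes. RMA quantile normalizes the arrays, so differences are relative to each array's distribution. No genome build for the arrays was used.

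The table held 28869 transcript clusters, of which 21062 were listed in the array annotation, 19310 with 1 gene symbol, 1752 with several and 7807 not listed. Of those with 1 symbol, 19279 were matched by Entrez identifier, which gave 18377 genes, each taken by its cluster with the highest mean. Genes in the dimmest 40% by mean were dropped, leaving 11026 to test. With R 4.3.3 and limma 3.58.1, 1 model of set, siRNA and condition (9 columns, 5 residual degrees of freedom, 19.6 after moderation) was fitted to all arrays with an intensity trend. Tests were two-sided, with Benjamini-Hochberg adjustment over all tested genes and a threshold of 0.05. The residual spread includes both measurement noise and the way an siRNA difference varies with medium and time, and the number of arrays limits precision. In the fit of the dependence on medium, that spread comes from the Nupr1 set alone. The fit was tested on simulated data. The genes named are the 10, the silenced genes, up to 3 per related list that passed with the smallest adjusted p, and the 5 most alike in profile. GYS1, BCKDHA and MAGED1 and the neighbours were added after their values were seen. The 10 genes and all lists were chosen with earlier results of these data known. Alternatives were the normalization, the filter, the choice of cluster, the trend, array weights, each set alone and leaving out each array.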

Additional observations from a re-analysis of the deposited data

How the results depend on the processing

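Every array is the only one of its group. The model compares siRNAs within set and condition, which pairs the arrays by condition, and a block by replicate number could not be fitted, since the labels carry none. Signal over background was not measured here. The alternatives of this paragraph changed no direction and no call of the 10 genes with siNupr1. The genes were chosen by their siNupr1 and siRelB differences, so how often those calls held is a description. With 1 array left out, siNupr1 kept 10 of the 10 genes as higher (423 to 1479 of all genes), siRelB 8 to 10 (293 to 1063) and siRelA 7 to 9 (429 to 1332). With siRelB, THBS3 lost its call without the siCtrl or the siRelB array in mock (adjusted p 0.061 and 0.067) and KLHDC3 without the siRelB array in mock (0.059). Between siRelB and siRelA, 0 to 2 of the 10 genes were higher (153 to 743 of all genes) and 137 to 699 genes lower. In EBSS against mock, 0 to 1 of the 10 genes were lower and 1514 to 2895 of all genes higher. Against 0 h, 136 to 473 genes were higher and 220 to 1238 lower at 3 h, 290 to 1046 higher and 533 to 1944 lower at 6 h, and 557 to 1081 higher and 1082 to 1664 lower at 9 h, with 0 to 1 of the 10 genes lower at 3 h, 0 to 1 higher at 6 h and 0 to 4 lower at 9 h.

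Array weights raised the siNupr1 count of higher genes to 1853, gave 618 higher and 1555 lower genes at 3 h and 614 higher and 903 lower at 9 h, with 0 of the 10 genes lower at 9 h, and 1 lower in EBSS against mock. Quantile normalization, centring and array weights each gave 1 of the 10 genes higher with siRelB than with siRelA. In EBSS against mock, quantile normalization gave 2 and centring 3 of the 10 genes higher, and centring gave 3946 of all genes higher. Without the filter on dim genes, 0 of the 10 rose at 6 h. The split of higher and lower genes at 3 h was 361 and 1000 as deposited, 508 and 641 after quantile normalization and 497 and 674 after centring. At 6 h it was 844 and 1736, 1189 and 1421, and 1309 and 1353, and at 9 h 1013 and 1662, 1239 and 1387, and 1350 and 1318. The cause of these differences was not tested.

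The directions that turned belonged to differences that passed under neither setting. After quantile normalization these were KLHDC3 between siRelB and siRelA (0.014), ZDHHC16 (0.069), CALB2 (0.024) and ANK1 (0.038) in EBSS against mock, ANXA6 at 3 h (0.056) and GANAB at 9 h (-0.0027). After centring they were ZDHHC16 (0.060), CALB2 (0.026) and ANK1 (0.020) in EBSS against mock and ANXA6 at 3 h (0.028). With 1 array left out, the difference between siRelB and siRelA ran from -9.5e-05 to 0.24 for ANK1 and from -0.21 to 0.13 for KLHDC3. In EBSS against mock it ran from -0.012 to 0.15 for ANXA6, from -0.080 to 0.0097 for ZDHHC16 and from -0.17 to 0.10 for CALB2. At 3 h it ran from -0.043 to 0.093 for GANAB and from -0.018 to 0.11 for MYH16, and at 6 h from -0.050 to 0.22 for ACSF2 and from -0.078 to 0.10 for KLHDC3. At 9 h it ran from -0.13 to 0.17 for GANAB, from -0.28 to 0.084 for ZDHHC16, from -0.43 to 0.037 for ACSF2, from -0.13 to 0.19 for KLHDC3 and from -0.085 to 0.34 for THBS3. Without the siNupr1 array at 9 h, the slope was 0.017 for ZDHHC16, 0.020 for ANK1 and 0.046 for PRDX4.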
